A study of Mus musculus with 16 samples.

Results

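Among the 16 mouse rhabdoid tumors of the series, 11 were Myc tumors located outside the brain parenchyma, and these fell into 6 with high and 5 with low transcript levels of Dlx1 and Dlx2. The tumors were chosen by the mean log2(TPM + 1) of both genes, where TPM is a length-corrected transcript level scaled to the same total in every tumor, and the split was set at 2. The 6 tumors above 2 came from mice 43989C, 43998A, 43987A, R26P123, 43992A and 29941C (Dlx-high), and the 5 tumors below it came from mice 43990A, 29225D, 43825B, R26P170 and R26P115 (Dlx-low). Since Dlx1 and Dlx2 selected the tumors, their levels are given as a description, without a test, and both genes were left out of the findings.

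Every mouse was Smarcb1flox/flox;R26-CreERT2 and received tamoxifen before birth, so that the Cre recombinase, expressed in all tissues from the Rosa26 locus, deleted Smarcb1, a core subunit of the SWI/SNF chromatin remodeling complex. Each tumor came from a different mouse. The 6 Dlx-high tumors were all induced at embryonic day E8 and were taken at 52 to 123 days of age, 3 from intracranial sites outside the brain (43989C, 43992A, 29941C), 2 from the jaw (43987A, R26P123) and 1 from the mouth (43998A). Of the Dlx-low tumors, 43990A came from the nose (E8, 90 days), 29225D from an intracranial site outside the brain (E7, 147 days), 43825B from the back (E6, 210 days), and R26P170 (E6, 170 days) and R26P115 (E8, 115 days) from intracranial sites outside the brain. The remaining 5 tumors of the series, all from within the brain (intra-CNS), induced at E6 and taken at 30 to 180 days, served as a second reference because they also contained Dlx1 and Dlx2 transcripts. A ubiquitous Cre leaves the cell in which a tumor began unknown, and bulk RNA cannot separate fewer cells of a type from less RNA per cell.

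Dlx1 and Dlx2 encode homeodomain transcription factors and lie next to each other on opposite strands, as the Dlx genes of mammals do in pairs. In the embryo they are known from the mesenchyme that cranial neural crest forms in the pharyngeal arches, where nested Dlx expression patterns the jaw, and from the ganglionic eminences of the forebrain, where they drive the formation of GABAergic interneurons. Genes of both settings were therefore followed across the split.

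Dlx1 (chr2:71528113-71533981, plus strand) was at 10.7 TPM in the lowest Dlx-high tumor, with a median of 26.6 and a maximum of 77.7. In the Dlx-low tumors Dlx1 was at 0.341 in 43990A, 0.512 in 29225D, 0.302 in 43825B, 0.599 in R26P170 and 1.34 in R26P115. Dlx2 (chr2:71543408-71546754, minus strand) ranged from 10.4 to 52.5 TPM, median 30.1, in Dlx-high and from 0.295 to 1.55 in Dlx-low tumors. No tumor had 1 of the genes high and the other low. Nearest to the split, the mean log2(TPM + 1) was 3.53 in 43989C on the high side and 1.29 in R26P115 on the low side. The antisense transcript Dlx1as (chr2:71516454-71537891, minus strand) overlaps Dlx1 and was at 4.12 to 64.7 TPM in Dlx-high and 0 to 0.341 TPM in Dlx-low tumors. Because the sources used here do not state whether strand was used in counting, Dlx1as is not independent of the rule. It was left in the fits, and it is 1 of the genes counted below as called higher by DESeq2 with and without R26P115 and as higher without overlap.

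**Figure D1:**
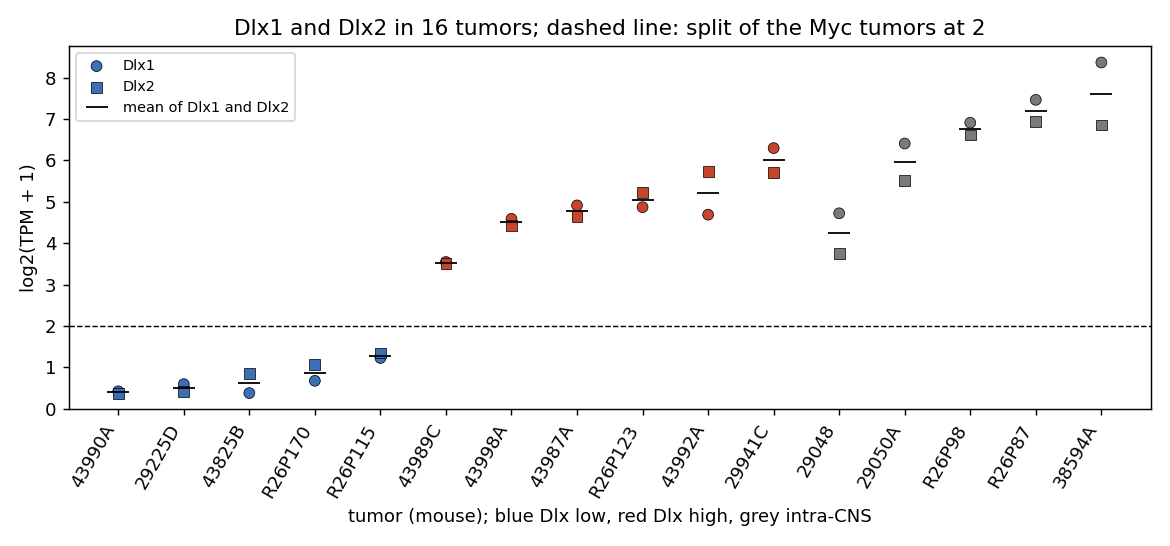
Dlx1 (circles), Dlx2 (squares) and their mean (bars) on the log2(TPM + 1) scale for each of the 16 tumors, with the split of the Myc tumors at 2 as a dashed line. The 5 Dlx-low tumors lie at or below a mean of 1.29 and the 6 Dlx-high tumors at 3.53 to 6.01. Of the 5 intra-CNS tumors, 29048 (4.24) and 29050A (5.96) lie within the Dlx-high range. The intra-CNS tumors R26P98 (6.76), R26P87 (7.20) and 38594A (7.61) lie above it.

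Sequences upstream of the RefSeq starts of the pair that defines the split, and of Shox2, a developmental gene without overlap between the groups, are shown for reference. They are the 250 bases before the RefSeq start of each gene on GRCm38.p6, read 5′ to 3′ on the strand of the gene, with the motif CACGTG, the E-box bound by Myc, in capitals. They lie at chr2:71529195-71529444 (plus strand), chr2:71546755-71547004 (minus strand) and chr3:66981772-66982021 (minus strand). The annotations disagree on the start of Dlx1, and the sequence shown for it lies inside the gene as GENCODE gives it above.
Dlx1: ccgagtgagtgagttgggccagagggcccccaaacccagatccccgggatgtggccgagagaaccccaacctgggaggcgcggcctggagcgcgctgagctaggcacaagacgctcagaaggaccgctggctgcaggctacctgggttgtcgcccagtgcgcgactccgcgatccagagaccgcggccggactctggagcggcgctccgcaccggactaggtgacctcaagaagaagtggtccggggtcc
Dlx2: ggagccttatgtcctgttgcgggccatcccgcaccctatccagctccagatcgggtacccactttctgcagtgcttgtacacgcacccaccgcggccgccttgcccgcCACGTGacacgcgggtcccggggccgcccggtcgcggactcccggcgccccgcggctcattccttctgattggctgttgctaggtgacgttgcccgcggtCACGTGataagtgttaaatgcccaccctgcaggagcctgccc
Shox2: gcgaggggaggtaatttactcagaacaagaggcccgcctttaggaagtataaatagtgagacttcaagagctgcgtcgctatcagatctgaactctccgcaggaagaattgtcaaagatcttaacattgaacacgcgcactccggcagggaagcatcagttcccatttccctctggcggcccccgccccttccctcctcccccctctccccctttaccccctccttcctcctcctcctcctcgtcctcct
Both strands were searched for CACGTG and for TAATTA, the core recognized by many homeodomain proteins including the Dlx proteins, and as both motifs are palindromes a match on 1 strand is a match on the other. The Dlx2 sequence held CACGTG 2 times, as did 0.448% of 27025 mouse promoters of the same length (2 or more matches), whereas 6.05% held it at all. TAATTA, held by 4.90% of promoters, was in none of the 3 sequences. These matches are a description of the letters and not of binding.

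One tumor stood apart before any comparison. R26P115 contained 199516 TPM of Ttr, the transthyretin gene that marks choroid plexus epithelium, against 0 to 1.09 TPM in the other 10 Myc tumors. Kcne2 (1159.5 TPM) and Folr1 (1178 TPM), a potassium channel subunit and a folate receptor of the same epithelium, and Otx2 (387 TPM), a transcription factor needed for its formation, reached at most 2.02, 5.19 and 0.704 TPM elsewhere among the Myc tumors. Summed over the 12 genes of the olfactory and choroid plexus list, R26P115 reached 204816 TPM, the other Dlx-low tumors at most 549.7 and the Dlx-high tumors 27.5 to 195. Myc itself was at 8.73 TPM in R26P115 and at 87.0 to 225 TPM in the other 10 tumors, whereas the intra-CNS tumors had 9.31 to 28.8 TPM. Foxm1, a transcription factor of dividing cells, was at 1.56 TPM in R26P115 and at 13.4 to 36.7 TPM in the others, and the summed cell cycle list was at 202 TPM against at least 844 TPM in every Dlx-high tumor. Smarcb1 was at 43.7 TPM, the highest of the Myc tumors, against 6.48 to 22.1 in Dlx-high and 8.63 to 26.1 in the other Dlx-low tumors. R26P115 was the Dlx-low tumor nearest the split, and how much of it was tumor tissue was not tested. Results below that rest on it are given with and without it.

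**Figure D2:**
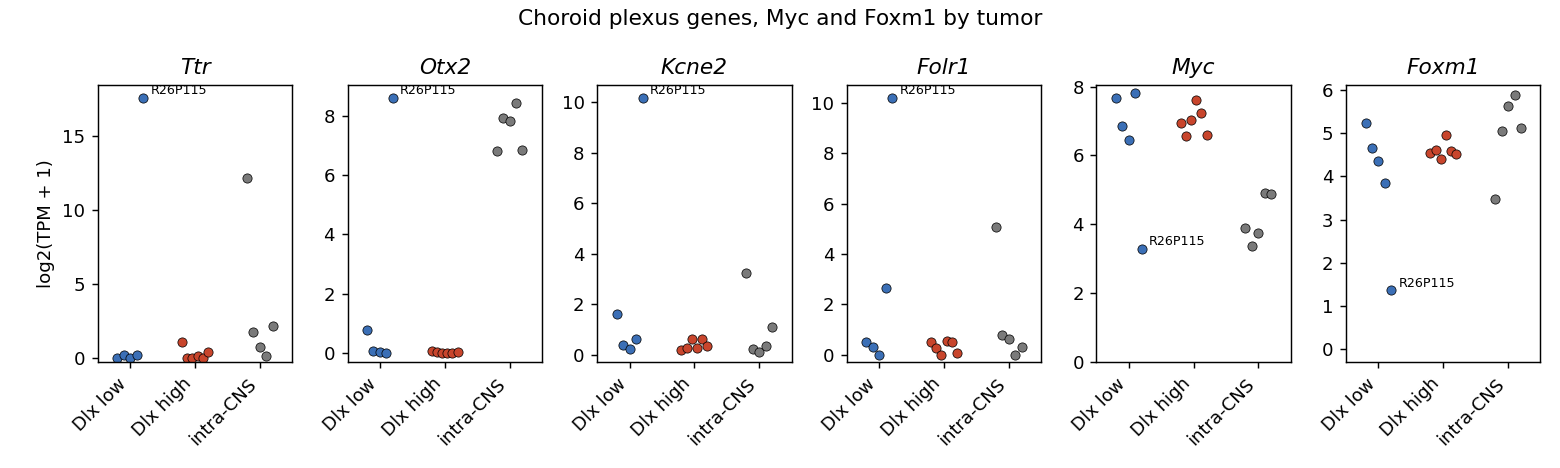
Levels of Ttr, Otx2, Kcne2, Folr1, Myc and Foxm1 on the log2(TPM + 1) scale by tumor, for 5 Dlx-low, 6 Dlx-high and 5 intra-CNS tumors. R26P115, labelled, lies above the other Myc tumors for the 4 choroid plexus genes and below them for Myc and Foxm1.

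Total counts ranged from 17889968 (43989C) to 110177889 (29941C), so that a floor of 3 counts corresponded to between 0.0272 and 0.168 CPM (counts scaled to library size). The lowest and the deepest library were both Dlx-high. Samples were single tumors of separate mice, and the p-values below measure the spread between mice.

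Across 21259 genes, no gene passed the test at an adjusted p under 0.05 and a fold change above 2 (a log2 of 1) between Dlx-high and Dlx-low tumors (0 called, 0%, edgeR quasi-likelihood test with Benjamini-Hochberg adjustment). The smallest adjusted p was 0.367. At an unadjusted p under 0.05, 779 genes (3.66%) were higher and 1675 (7.88%) lower in Dlx-high tumors. The excess of lower genes was smaller when R26P115 was left out, with 585 (2.77%) higher and 863 (4.09%) lower of 21118 genes, and again none called. limma on log2(TPM + 1) also called 0 genes, with 1036 at an unadjusted p under 0.05. DESeq2 instead called 97 genes higher (0.626%) and 171 lower (1.10%) of 15501 tested, and without R26P115 it called 64 higher (0.394%) and 53 lower (0.326%) of 16242. Of its 268 calls, 90 were called in both runs, which is 33.6% of the first list and 76.9% of the second. The values below are therefore described by tumor, with the tool named where a call between these groups is described. DESeq2 with R26P115 included also called AW551984 higher, Ppp1r1c higher, and Grip1 and Kifc2 lower, which are named further below.

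A description that needs no model is the absence of overlap. With groups this small some genes separate by chance, and how many would do so was not tested. Where the mean count reached 50 or more (14272 genes), CPM did not overlap between the groups for 50 genes higher (0.350%) and 54 lower (0.378%) in Dlx-high tumors. DESeq2 also called 40 of these 104 genes, and 21 of them were called with and without R26P115. Leaving out R26P115 gave 76 higher and 71 lower of 14101 genes without overlap. A gene separates more easily when a group holds fewer tumors, so the counts with and without R26P115 are not on the same footing.

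Shox2, a homeobox gene of limb, heart and palate development (chr3:66971727-66981771, minus strand), was higher in every Dlx-high than in every Dlx-low tumor. In Dlx-high tumors it was at 28.6 TPM at the lowest, 67.4 at the median and 314 at the highest, in 43987A. It was at 2.64 TPM in 43990A, 9.53 in 29225D, 1.12 in 43825B, 2.19 in R26P170 and 0.223 in R26P115. The groups thus did not overlap, and 29225D had more of it than the other Dlx-low tumors. The log2 fold change was 5.36 ± 0.99 (SE, n = 6 and 5, edgeR adjusted p = 0.367), and 5.06 without R26P115. DESeq2 called it with an adjusted p of 8.38e-08, and the adjusted p ranged from 6.22e-08 to 0.707 over all alternatives. Of all listed genes whose mean count reached 50, Shox2 alone had no overlap in CPM between the groups. Over all genes at that count, 0.350% were higher and 0.378% lower without overlap.

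Osr1 (chr12:9570116-9581500, plus strand), a zinc finger transcription factor of craniofacial and kidney mesenchyme, was at 54.0 TPM in the lowest Dlx-high tumor, 83.7 at the median and 309 in 43992A. It was at 6.71 TPM in 43990A, 10.8 in 29225D, 2.76 in 43825B, 59.5 in R26P170 and 4.89 in R26P115. R26P170, from an intracranial site, overlapped the lower end of the Dlx-high range, and the other Dlx-low tumors did not. The log2 fold change of 2.92 ± 0.84 (SE) had an adjusted p of 0.367 in edgeR. DESeq2 called it with all 11 tumors and not without R26P115.

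Other arch genes differed among the Dlx-high tumors. Emx2, a homeobox gene, was at 10.5 to 18.2 TPM in 43989C, 43987A and 43998A, at 0.352 to 1.26 TPM in the other Dlx-high tumors and at no more than 0.550 TPM in Dlx-low tumors. Barx1, a homeobox gene of the molar-forming jaw mesenchyme, was at 59.1 TPM in R26P123 and 17.6 TPM in 29941C, and at 1.98 TPM or less in every other Myc tumor. Lhx9, a LIM homeobox gene, was highest in 29941C (19.8 TPM) and next in 43989C (3.48 TPM). No single subset of Dlx-high tumors carried all 3 of these genes, and tumors of the jaw (43987A and R26P123) differed from each other in Emx2 and Barx1.

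Over the list of 38 pharyngeal arch and cranial crest genes the median log2 fold change was 0.50, against -0.05 over all genes tested. The genes of this list were chosen with earlier results of these data known, so its difference from all genes is a description only. Of these, 8 were higher and 2 lower at an unadjusted p under 0.05, none was called by edgeR, and DESeq2 called 4 higher (Osr1, Shox2, Lhx9 and Emx2) of the 33 it tested. Over all genes tested these shares were 3.66% higher and 7.88% lower in edgeR and 0.626% called higher in DESeq2. Without R26P115 the median was 0.56, with 6 higher and 3 lower, against a median of 0.00 and shares of 2.77% and 4.09% over all genes. DESeq2 then called 2 higher (Shox2 and Emx2) of 32, against 0.394% of all genes. Emx2 and Lhx9 were also on in the intra-CNS tumors, at 1.58 to 40.1 and 0.752 to 28.3 TPM. The study names EMX2 among genes of forebrain development in human tumors. The summed level of the list ranged from 799.7 to 1592 TPM in Dlx-high and from 326 to 1399 TPM in Dlx-low tumors, so that the groups overlapped in total.

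The other Dlx genes did not follow the pair. Dlx5 (chr6:6877805-6882085, minus strand) and Dlx6 (chr6:6863334-6868568, plus strand), the neighbouring pair that acts in the lower jaw, were both on in 3 Myc tumors. Dlx5 was at 35.0 TPM in 43989C, 33.2 in 43987A and, on the low side, 32.6 in R26P170, and at 1.81 TPM or less in the other 8 tumors. Dlx6 was at 28.9, 35.4 and 21.0 TPM in the same 3 tumors and at 0.392 TPM or less elsewhere. R26P170 thus carried Dlx5 and Dlx6 without Dlx1 and Dlx2, and 4 Dlx-high tumors carried Dlx1 and Dlx2 without the other pair. The log2 fold changes of 0.77 ± 1.90 and 1.35 ± 2.26 (SE) were smaller than their errors, and that of Dlx5 turned to -0.01 without 43989C. Over all alternatives that of Dlx5 reached up to 5.37, and that of Dlx6 ran from 0.46 to 10.75. Dlx3, a gene of epithelium and of the distal arches, reached 4.35 TPM in 43992A and 5.84 TPM in R26P123 with 1.71 TPM or less elsewhere, and Dlx4 stayed at or under 1.16 TPM in all 11 tumors. Of Dlx3 to Dlx6, 0 of 4 passed an unadjusted p under 0.05 or a DESeq2 call. Over all genes 3.66% were higher and 7.88% lower at that p, and DESeq2 called 0.626% higher and 1.10% lower.

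**Figure D3:**
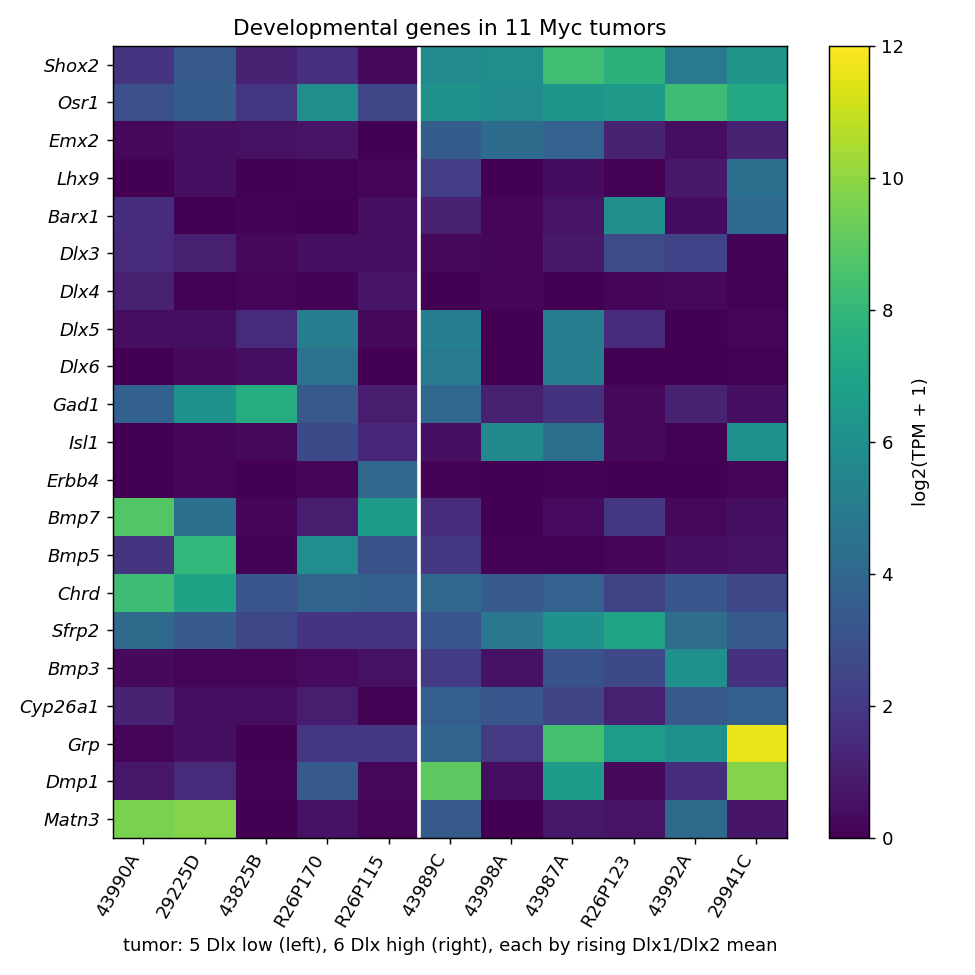
Levels of 21 developmental and signalling genes (rows) on the log2(TPM + 1) scale in the 11 Myc tumors (columns), Dlx-low on the left and Dlx-high on the right, each ordered by rising mean of Dlx1 and Dlx2. Shox2 and Osr1 are high across the Dlx-high tumors, whereas Emx2, Barx1, Isl1, Dlx5 and Dlx6 are high in subsets of them.

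Genes of the ganglionic eminences and the interneuron lineage were read as a list of 26. Their median log2 fold change was 0.11, with 1 higher and 3 lower at an unadjusted p under 0.05, against 3.66% higher and 7.88% lower over all genes. Without R26P115 the median was -0.04 with 0 higher and 2 lower, against 2.77% and 4.09%. Their summed level was 198 to 465 TPM in Dlx-high and 125 to 491 TPM in Dlx-low tumors. Gad1, which encodes an enzyme that makes GABA, was lower in Dlx-high tumors: the lowest had 0.197 TPM, the median 1.18 and the highest, 43989C, 15.6 TPM. In Dlx-low tumors Gad1 was at 12.1 in 43990A, 70.6 in 29225D, 174 in 43825B, 9.13 in R26P170 and 0.917 in R26P115. The log2 fold change was -3.90 ± 1.37 (SE, unadjusted p = 0.0151, adjusted p = 0.380, edgeR), and the groups overlapped through 43989C and R26P115. DESeq2 called it only when R26P115 was left out. Isl1, a LIM homeobox gene of the striatal lineage and of motor neurons, was at 19.1, 48.3 and 63.4 TPM in 43987A, 43998A and 29941C and at 5.50 TPM or less elsewhere. Erbb4, a receptor of migrating interneurons, was at 14.7 TPM in R26P115 and at no more than 0.149 TPM in the other 10 tumors. Its log2 fold change of -6.00 became -0.54 without R26P115.

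Genes that signal in the arches included several bone morphogenetic proteins (BMP). Bmp7 was at 0.0202 to 2.75 TPM in Dlx-high tumors, median 0.338, and at 442 TPM in 43990A, 20.1 in 29225D, 0.143 in 43825B, 0.865 in R26P170 and 91.1 in R26P115. Bmp5 was at 0.0468 to 2.73 TPM in Dlx-high tumors, median 0.274, and at 2.59, 245, 0.0548, 58.4 and 6.87 TPM in the Dlx-low tumors in the same order. The tumor from the back, 43825B, was as low as the Dlx-high tumors for both. The log2 fold changes were -6.90 ± 1.83 for Bmp7 and -6.51 ± 1.76 for Bmp5 (SE). edgeR called neither and DESeq2 both, with adjusted p of 0.000465 and 0.000913 and a range from these to 0.819 over the alternatives of each. Without R26P115, DESeq2 again called Bmp5 and gave no adjusted p for Bmp7. Chrd, the secreted BMP antagonist chordin, was likewise highest in 43990A (312 TPM) and 29225D (121 TPM) and at 4.48 to 15.2 TPM in Dlx-high tumors, where the remaining 3 Dlx-low tumors also lay (7.87 to 13.4 TPM), and DESeq2 called it with and without R26P115. In the other direction, Bmp3, a BMP that opposes the others, was at 0.481 to 64.5 TPM in Dlx-high and at 0.145 to 0.433 TPM in Dlx-low tumors, without overlap in TPM. Sfrp2, a secreted Wnt antagonist, was at 7.88 to 128 TPM, median 22.9, against 2.58 to 16.7 TPM. The groups overlapped, and DESeq2 called it with all 11 tumors and not without R26P115. Cyp26a1, the enzyme that degrades retinoic acid, is not on the arch signalling list counted below and was named for its small unadjusted p. It was at 1.08 to 11.9 TPM, median 8.63, against 0.0511 to 1.19 TPM, with overlap only between R26P123 and 43990A. DESeq2 called Cyp26a1 with and without R26P115.

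Over the 26 arch signalling genes, 2 were higher and 6 lower at an unadjusted p under 0.05, and DESeq2 called 1 higher and 3 lower of 23. The shares over all genes were 3.66% and 7.88% in edgeR and 0.626% and 1.10% in DESeq2. The median log2 fold change was -0.48, and -0.78 without R26P115 with 2 higher and 7 lower, where DESeq2 called 0 higher and 2 lower of 21. The shares over all genes were then 2.77% and 4.09% in edgeR and 0.394% and 0.326% in DESeq2. Of the 39 Hox genes tested, which give cells their position along the body axis, 0 were higher and 2 lower at an unadjusted p under 0.05, with a median of -0.78 and no call by either tool. Over all genes 7.88% were lower. Without R26P115, 0 Hox genes were higher and 3 lower, against 4.09% of all genes lower.

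**Figure D4:**
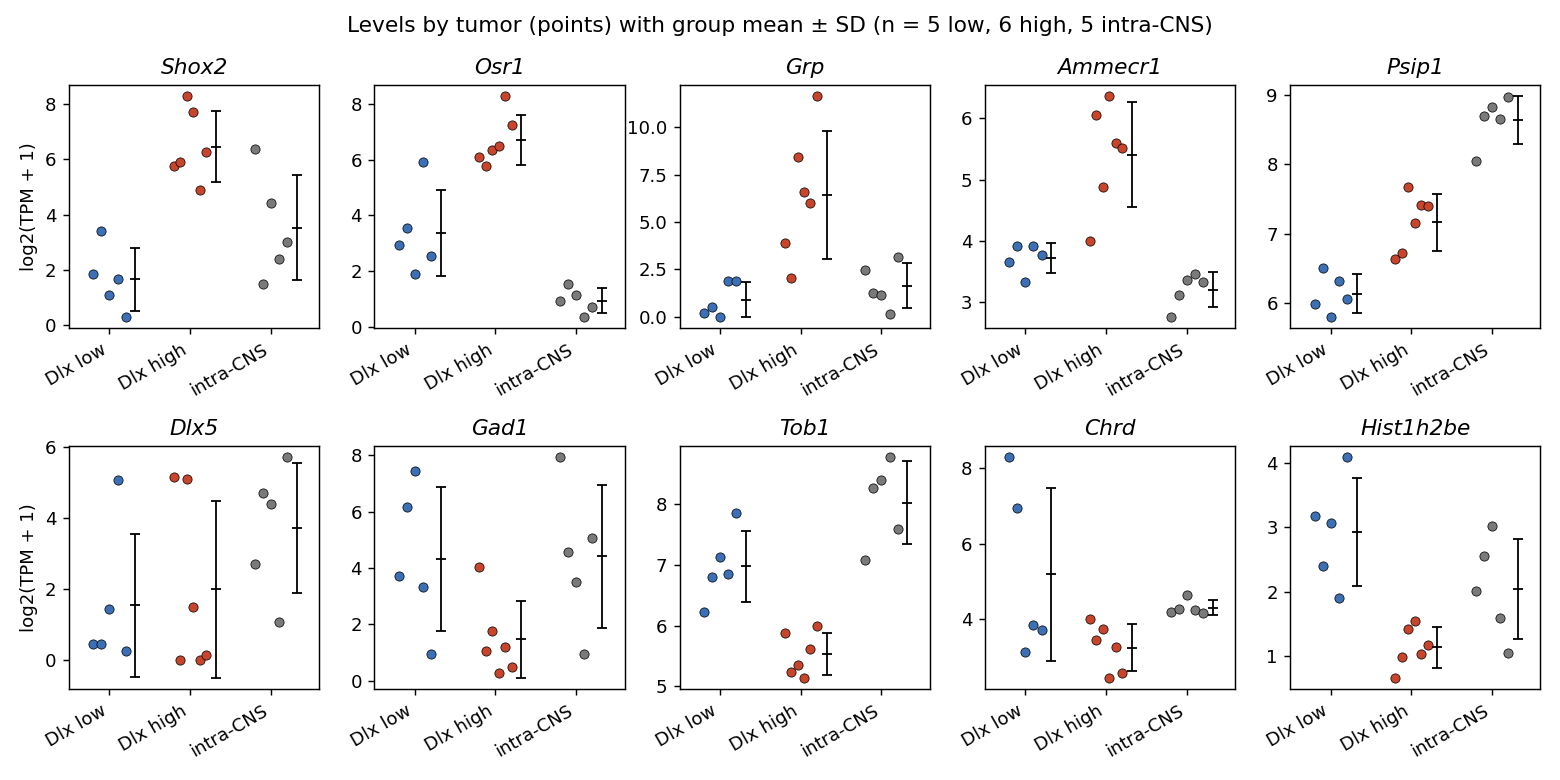
Levels of 10 genes on the log2(TPM + 1) scale for each of 5 Dlx-low, 6 Dlx-high and 5 intra-CNS tumors (points), with group means and SD (bars). Shox2, Grp, Ammecr1 and Psip1 are higher and Tob1 and Hist1h2be lower in every Dlx-high than in every Dlx-low tumor, whereas Dlx5 is high in tumors of all 3 groups.

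Beyond the lists, the genes named are those of smallest unadjusted p or of highest and lowest correlation with the Dlx1 and Dlx2 mean, and none passed edgeR's test. Grp, which encodes gastrin-releasing peptide, a growth-promoting neuropeptide, covered the widest range. It was at 3.17 TPM in 43998A, 14.1 in 43989C, 63.8 in 43992A, 94.2 in R26P123, 350.4 in 43987A and 3233 in 29941C. In Dlx-low tumors it was at 0.164 in 43990A, 0.411 in 29225D, 0 in 43825B, 2.68 in R26P170 and 2.77 in R26P115. The groups did not overlap, but 43998A lay close to the highest Dlx-low tumors. The log2 fold change was 8.94 ± 2.14 (SE), with an adjusted p of 0.367 in edgeR and 1.44e-06 in DESeq2, and the adjusted p ranged from 1.44e-06 to 0.819 over the alternatives.

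Smaller but more even differences were seen in Ammecr1, at 15.1 to 81.5 TPM in Dlx-high (median 46.3) and 9.01 to 14.2 TPM in Dlx-low tumors. Psip1, which encodes the chromatin protein LEDGF that tethers transcription regulators, was at 97.8 to 202 TPM, median 155, against 54.5, 62.3, 65.5, 78.8 and 90.0 TPM in 43825B, 43990A, R26P115, R26P170 and 29225D. Its log2 fold change was 1.08 ± 0.23 (SE). Both genes were higher in every Dlx-high than in every Dlx-low tumor, and DESeq2 called both with and without R26P115. Tmem200a (0.638 to 15.3 against 0.255 to 0.585 TPM), Specc1 (7.41 to 33.8 against 2.0 to 5.88 TPM) and Lipg, an endothelial lipase (1.21 to 10.8 against 0.308 to 0.501 TPM), were also without overlap in TPM and called by DESeq2 in both runs.

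Of the genes lower in Dlx-high tumors, Tob1, which encodes an antiproliferative protein, was at 34.2 to 62.5 TPM, median 43.8, against 74.2 in 43990A, 111 in 29225D, 139 in 43825B, 115 in R26P170 and 229.6 in R26P115. Its log2 fold change was -1.56 ± 0.32 (SE), and -1.18 without R26P115. Hist1h2be, a histone H2B gene, was at 0.580 to 1.93 TPM against 2.72 to 16.1 TPM. As its sequence is shared closely with other H2B genes, how reads were assigned to it is uncertain. Syt13, a synaptotagmin, was at 0.131 to 0.366 TPM against 0.704 to 54.5 TPM, the highest in 43990A, and Slc9a3r1, a scaffold protein of epithelial membranes, at 16.5 to 44.8 against 53.1 to 148 TPM. Cdk5, a kinase of postmitotic neurons, was at 45.3 to 59.6 against 71.9 to 93.9 TPM, and Pacsin3, an endocytic adaptor, at 13.3 to 23.7 against 24.8 to 61.6 TPM. None of these genes overlapped between the groups in TPM, while Pacsin3 did overlap in CPM. DESeq2 called Tob1, Hist1h2be and Pacsin3 with and without R26P115, Slc9a3r1 with it only and Syt13 without it only. Klhdc7a and Wdr86 also had no overlap, but R26P115 had 97.9 and 236 TPM of them against at most 4.71 and 2.44 TPM in the other Dlx-low tumors, and their log2 fold changes of -9.03 and -8.27 became -5.06 and -2.93 without it, where DESeq2 called both.

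The genes whose level across the 11 tumors was most like the Dlx1 and Dlx2 mean were, after Dlx1as (Pearson correlation of log2(TPM + 1) 0.95), Psip1 (0.89), AW551984 (0.89), Yeats4 (0.88), Ammecr1 (0.87), Grp (0.87), Shox2 (0.86), Slk (0.85), Osr1 (0.85) and Smg6 (0.84). The most opposed were 4930526I15Rik (-0.85), Tigd5 (-0.85), Cdk5 (-0.84), Pacsin3 (-0.83) and Slc9a3r1 (-0.81). These correlations are a description over 11 tumors that share the split and differ in depth. How much of each rests on the gap between the groups was not tested. Within the 6 Dlx-high tumors alone the correlation was 0.69 for Psip1, 0.76 for Grp, 0.93 for Smg6 and 0.08 for Shox2, so that Shox2 separated the groups without following the Dlx level among Dlx-high tumors. Yeats4, a chromatin reader subunit, differed little in size, at 59.9 to 74.0 TPM against 48.3 to 55.7 TPM. Of the 9 genes other than Dlx1as, 7 were again among the first 10 without R26P115, and 4 were by Spearman correlation.

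Lists of markers of other cell types held no gene called by edgeR, and their summed levels overlapped between the groups. The epithelial list had a median log2 fold change of 1.83, with 3 of 20 genes higher at an unadjusted p under 0.05, and its summed level spread from 19.3 to 2599.8 TPM in Dlx-high and from 22.9 to 3323 TPM in Dlx-low tumors. Krt10, a keratin of differentiating epidermis, was at 469 TPM in R26P123 from the jaw and 39.9 TPM in 29941C and at 3.98 TPM or less elsewhere. The skeletal muscle list had a median of 2.02 with 0 of 20 genes past an unadjusted p under 0.05, and summed levels of 14.1 to 1044 against 10.3 to 238 TPM. For the meningeal list of 20 genes the median was -0.68, with 4 lower at an unadjusted p under 0.05. DESeq2 called 2 of 17 lower, against 1.10% of all genes. Without R26P115 the median was -0.45, and 4 were again lower at an unadjusted p under 0.05. DESeq2 then called 0 of 18 lower, against 0.326% of all genes. Summed levels of the meningeal list were 1089 to 2645 against 1261 to 8111 TPM. Macrophage (16 genes, median 0.07), lymphocyte (16, -0.72) and cell cycle (18, 0.14) lists had 0 genes past an unadjusted p under 0.05, and the summed levels of each overlapped between the groups. Without R26P115, 2 of 16 lymphocyte genes were lower and the macrophage and cell cycle lists again had 0 past it. The epithelial median was then 2.64, again with 3 of 20 higher. Of all genes tested, 3.66% were higher and 7.88% lower at an unadjusted p under 0.05, and 2.77% and 4.09% without R26P115. The part of these cell types in the differences above was not tested.

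In the bone and cartilage list of 23 genes, 1 was higher and 4 lower at an unadjusted p under 0.05 (3.66% and 7.88% of all genes), with single tumors far apart. Without R26P115, 1 was higher and 2 lower (2.77% and 4.09% of all genes). Dmp1, a matrix protein of osteocytes and odontoblasts, was at 512, 93.0 and 876 TPM in 43989C, 43987A and 29941C and at 0.230 to 1.96 TPM in the other Dlx-high tumors, against 0.0678 to 9.41 TPM in Dlx-low tumors, and DESeq2 called it with and without R26P115. Matn3, a cartilage matrix protein, was instead at 774 TPM in 43990A and 864 TPM in 29225D and at 16.9 TPM or less in the other 9 tumors. The neuron list (20 genes, median 0.13) had 1 gene higher and 1 lower, with all 11 tumors and without R26P115, against the same shares of all genes. Stmn2, a neuronal microtubule regulator, was higher, from 8.16 TPM to 449 TPM in 43998A, against 2.42 to 13.5 TPM, and Celf4, a neuronal RNA-binding protein, was lower, at 0.797 to 4.26 against 3.43 to 76.9 TPM, and called by DESeq2 in both runs. Among mural cell genes, Pdgfrb was at 18.3 to 505 against 22.0 to 97.0 TPM and Rgs5 at 10.2 to 40.9 against 36.9 to 95.3 TPM, with medians in opposite directions (123 against 26.6 and 23.2 against 78.2 TPM). DESeq2 called Rgs5 with all 11 tumors and not without R26P115.

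**Figure D5:**
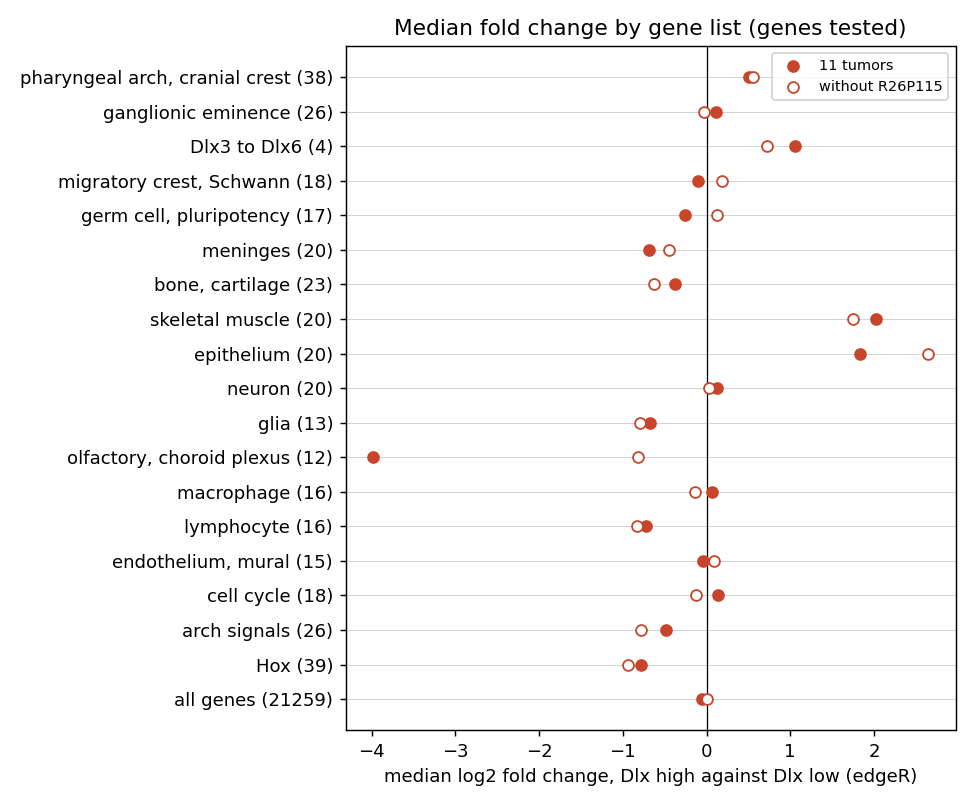
Median log2 fold change of Dlx-high against Dlx-low tumors for each gene list (genes tested in parentheses), with all 11 tumors (filled) and without R26P115 (open). The olfactory and choroid plexus list moved from -3.98 to -0.82 without R26P115, and the arch list stayed above the median of all genes, at 0.50 and 0.56.

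The olfactory and choroid plexus list had a median of -3.98, with 1 of 12 genes higher and 7 lower at an unadjusted p under 0.05 (3.66% and 7.88% of all genes). Without R26P115 the median was -0.82, with 0 higher and 3 lower (2.77% and 4.09% of all genes). Myc did not differ between the groups beyond its spread, at 94.2 to 193 TPM in Dlx-high and 87.0 to 225 TPM in Dlx-low tumors other than R26P115 (log2 fold change 0.09 ± 0.55, SE, adjusted p = 0.963, edgeR, and -0.19 without R26P115). Smarcb1 had a log2 fold change of -0.57 ± 0.52 (SE), which was 0.04 without R26P115.

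Labels that the rule did not use were then compared. Tamoxifen had been given at E8 in 6 of 6 Dlx-high and 2 of 5 Dlx-low mice, a difference of 60 percentage points (p = 0.0606, Fisher's exact test, two-sided). The mean age was 89.2 ± 24.2 days (SD, n = 6) in Dlx-high and 146 ± 46.8 days (n = 5) in Dlx-low mice, a difference of -57.2 days (p = 0.0260, exact permutation test, two-sided, where this design cannot go below 0.00433). Within the mice induced at E8 the difference was -13.3 days (exact permutation p = 0.5, 6 against 2 mice), so that age and day of induction cannot be told apart here. Leaving out single mice gave differences of -71.3 to -41.3 days, and leaving out 43825B (p = 0.0619), 43987A (p = 0.0635), 43998A (p = 0.0556), 29941C (p = 0.0635) or R26P170 (p = 0.0524) moved the exact p above 0.05. The site was intracranial in 3 of 6 against 3 of 5 tumors (p = 1, Fisher's exact test, two-sided), and 5 Dlx-high mice were labelled female and 1 male, against 2 female and 2 male Dlx-low mice and 1, R26P170, with no sex given.

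Because induction at E8 went with the Dlx-high group, the comparison was repeated with the day of tamoxifen held fixed. Among the 8 tumors induced at E8, edgeR called 70 genes higher and 185 lower in 6 Dlx-high against 2 Dlx-low tumors, 43990A and R26P115. Without R26P115, 33 were called higher and 81 lower against 43990A alone, which is then assumed to vary like the Dlx-high tumors. With E8 against E6 and E7 as a covariate in all 11 tumors, 105 genes were called higher and 508 lower. These calls rest on 2 E8 tumors in the Dlx-low group, 1 of them R26P115. Whether the Dlx difference depended on site was tested with an interaction term, and edgeR called 0 of 21259 genes (smallest adjusted p 0.0599, 1759 at an unadjusted p under 0.05).

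The intra-CNS tumors also carried Dlx1 (25.4 to 329 TPM) and Dlx2 (12.6 to 121 TPM), which allowed the Dlx-high Myc tumors to be set against tumors with the same genes on. In this comparison, which the split did not use directly, edgeR called 3273 genes higher (15.2%) and 3215 lower (14.9%) of 21529 in the 6 Dlx-high tumors. The median log2 fold change of all genes was 0.09. All intra-CNS tumors were induced at E6 and all Dlx-high tumors at E8, so that the location of the tumor, its class and the day of induction cannot be told apart.

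Of the arch list, 10 of 38 genes were called higher and 2 lower, with a median log2 fold change of 1.25, where 15.2% of all genes were called higher and 14.9% lower. Osr1 was higher by 7.54 ± 0.73 (SE, adjusted p = 3.32e-05, edgeR), at 0.275 to 1.94 TPM in the intra-CNS tumors. Prrx1, a homeobox gene of arch and limb mesenchyme, was higher by 2.6 ± 0.71 (adjusted p = 0.0142, edgeR) and Alx1, a gene of the frontonasal mesenchyme, by 6.93 ± 1.69 (adjusted p = 0.00770, edgeR). Alx1 was not shared by all Dlx-high tumors, with 0.0570 TPM in R26P123 and 14.1 to 111 TPM in the other 5. Shox2 was higher by 3.02 ± 1.0 (adjusted p = 0.0335, edgeR), and 1 intra-CNS tumor, 29048, had 82.0 TPM of it against 1.78 to 20.4 TPM in the other 4. Without 29048 its log2 fold change was 4.38, and without 43987A, R26P123 or any single one of the other 4 intra-CNS tumors it was no longer called (adjusted p up to 0.0825). Hand2, which acts in the ventral arches, went the other way (-6.04 ± 1.24, adjusted p = 0.00298, edgeR), at 0 to 8.79 TPM in Dlx-high and 84.1 to 439 TPM in intra-CNS tumors.

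Of the 26 genes of the ganglionic eminence list, 4 were called higher (Lhx6, Lhx8 and Maf among them) and 11 lower (among them Gsx1, Nkx2-1, Sp8, Sp9, Slc32a1, Etv1, Pou3f4, Sox6 and Erbb4), with a median log2 fold change of -3.25. Over all genes 15.2% were called higher and 14.9% lower. Gsx1 (-10.77 ± 1.64), a homeobox gene of the eminence progenitors, was at 0 to 0.441 TPM in Dlx-high and 11.3 to 858 TPM in intra-CNS tumors, and its log2 fold change ran from -13.22 (without R26P123) to -8.57 (without R26P87). Nkx2-1 (-8.86 ± 1.01), which specifies the medial eminence, was also lower, with an adjusted p of 9.11e-05 (edgeR). It had at most 3 counts in any Dlx-high tumor, so the size of its change is uncertain. The genes called higher included Lhx8 (9.81 ± 0.92, adjusted p = 3.02e-05, edgeR), a LIM homeobox gene of the medial eminence that is also known from the arch mesenchyme. Lhx8 was at 19.4 to 262 TPM in every Dlx-high tumor and at 0.0561 to 0.407 TPM in intra-CNS tumors. It was not particular to Dlx-high tumors within the Myc class, since 43825B had 60.8 TPM and R26P170 156 TPM, while 43990A, 29225D and R26P115 had 0.185, 6.02 and 0.0460 TPM. Lhx6, its relative (3.49 ± 0.96), was highest in the Dlx-low tumor 29225D (38.6 TPM). Maf is also expressed in macrophages, and 14 of the 16 macrophage genes were called higher in the same comparison and 0 lower. The part of macrophages in the Maf value was not tested. Gad1 (-3.51 ± 1.36, adjusted p = 0.0608), Dlx5 (-0.23 ± 1.60) and Dlx6 (-0.16 ± 1.78) were not called by edgeR. DESeq2 called Gad1 with an adjusted p of 0.00635, and over the alternatives it ranged from 0.00635 to 0.273. The log2 fold change of Gad1 ranged from -5.21 to -1.71 over the alternatives.

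Among the named genes of largest change were Ereg, an EGF receptor ligand (12.10 ± 1.13), Foxb2, a forkhead gene (11.40 ± 2.02), Mmp9, a matrix metalloprotease (10.80 ± 2.35), and Crabp1, a retinoic acid binding protein (10.61 ± 1.27), all called higher. Mmp9 was at 6.82 to 8412 TPM in Dlx-high tumors, median 153, and its log2 fold change was 8.11 without 43998A. Over the alternatives that of Ereg ran from 11.63 to 13.98 (without 38594A) and that of Foxb2 from 10.02 (without R26P123) to 11.87. Crabp1 was at 164 to 5322 TPM in Dlx-high tumors, median 2995.5, at 0 to 5.40 TPM in intra-CNS tumors, and at 0.819, 145, 1.05, 2283 and 67.8 TPM in 43990A, 29225D, 43825B, R26P170 and R26P115. Otx2 (-12.91 ± 0.66), Sox1 (-12.03 ± 0.88) and Hes5 (-11.20 ± 0.85), genes of the neural tube and its progenitors, were called lower (Sox1 at -13.97 without 29941C), and Sox1 and Hes5 were at 0.0978 and 0.116 TPM or less in every Dlx-high tumor. Counts in Dlx-high tumors were at most 3 for Otx2 and 2 for Hes5, and at most 1 for Sox1 apart from 19 in 29941C. As these lie at or under the floor of 3 counts, other than the 19, the sizes of the changes are uncertain. Myc was higher by 3.42 ± 0.36 and Mycn and Mycl, its relatives, were lower by -8.08 ± 0.83 and -5.09 ± 0.45. The neuron list had 0 of 20 genes higher and 14 lower, and the glia list 0 of 13 higher and 7 lower, where 15.2% of all genes were called higher and 14.9% lower.

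Of the genes without overlap between Dlx-high and Dlx-low tumors, Ammecr1 (3.10 ± 0.40) was called higher and Tob1 (-2.0 ± 0.31) lower also against the intra-CNS tumors, and Slk, a kinase that overlapped between the Myc groups, was higher there by 1.91 ± 0.24. The comparisons share the 6 Dlx-high tumors. Psip1, in contrast, was at 264 to 497 TPM in the intra-CNS tumors, above every Dlx-high tumor (97.8 to 202 TPM), and Grp was at 0.125 to 8.07 TPM there, with a median of 1.41 TPM.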

How the data were processed

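Stranded paired-end libraries were made from polyadenylated RNA of 16 tumors. The authors trimmed the reads with Trim Galore and mapped them with STAR 2.5.3a to mm10, per the submitters' processing notes, and deposited raw counts per gene (24982 genes) and TPM values (24951 genes). The gene annotation, the use of strand in counting and sequencing batches are not given in the sources used here. Total counts ranged from 17889968 to 110177889.

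The 11 Myc tumors were split by the mean log2(TPM + 1) of Dlx1 and Dlx2 at 2. The members and the gene lists were chosen with earlier results of these data known. All genes counted in at least 1 tumor entered edgeR 4.0.16 (TMM, quasi-likelihood) in R 4.3.3. P-values were adjusted (Benjamini-Hochberg) across every gene other than Dlx1 and Dlx2, and a call needed an adjusted p under 0.05 together with a log2 fold change beyond 1 in either direction. The code was tested on simulated data. Alternatives were DESeq2 1.42.0, limma 3.58.1 on log2(TPM + 1) or log2(TPM + 0.1), DESeq2 size factors, a filter on low counts, no fold threshold, covariates or subsets by day of tamoxifen, site, mouse name, age and sex, and the omission of each tumor. Runs without R26P115 in DESeq2, in the E8 tumors and in the count of genes without overlap were added after the data were seen. Labels were compared with Fisher's exact or exact permutation tests.

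Named genes were, for each comparison, the called genes of largest change without overlap among those with a mean count of at least 50, filled up with genes of smallest unadjusted p. The 10 genes most like and the 5 most unlike the Dlx mean, and list members that were called or of smallest p, were added. Only part of those from the intra-CNS comparison are printed, and some genes that the rule names are not reported here. Gene positions are from GENCODE vM21, where 81 of 82 genes were found. Promoters are from RefSeq (GRCm38.p6). Tables and figures were made in Python 3.11.15 with pandas 2.3.3, numpy 2.4.6 and matplotlib 3.10.9.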

Additional observations from a re-analysis of the deposited data

Results flagged for a closer look

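Within each group, 128 sets of log2(TPM + 1) values of the named genes were examined for a tumor that stood apart from the rest (Dixon's test at the 95% level, 6 Dlx-high or 5 Dlx-low tumors), and 15 had one on this scale. The values below are in TPM. Chance alone flags about 1 in 20 such groups. In 6 of the 15, the tumor was R26P115, with 199516 TPM of Ttr, 1159.5 of Kcne2, 1178 of Folr1, 387 of Otx2, 236 of Wdr86 and 14.7 of Erbb4, each the highest of the Dlx-low tumors. R26P170 stood apart as the highest Dlx-low tumor for Dlx5 (32.6 TPM) and Dlx6 (21.0 TPM). The tumor of 29225D was the lowest Dlx-low tumor for Grip1 (0.530 TPM), an adaptor of glutamate receptors, and 43825B was the lowest for Kifc2 (4.31 TPM), a kinesin.

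Among the Dlx-high tumors, 43989C was the highest for Bmp5 (2.73 TPM) and Ttr (1.09 TPM), 43987A for Ppp1r1c (5.31 TPM), a phosphatase inhibitor gene, and R26P123 for Foxm1 (29.9 TPM), and 43998A was the lowest for Klhdc7a (0.0126 TPM). The Klhdc7a value is 1 count, under the floor of 3 counts, and cannot be told from counting error. No cause of these values was tested.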

How the results depend on the processing

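The number of genes called between Dlx-high and Dlx-low tumors depended on the test and on the day of tamoxifen. It was 0 in edgeR, 268 in DESeq2, 255 in edgeR among E8 tumors, 613 with the day as a covariate and 1 in female mice (Rhobtb3, log2 fold change 3.86, adjusted p = 0.0496, range over the alternatives 0.0496 to 0.819). Chosen after seeing the data, E8 tumors other than R26P115 gave 114 and DESeq2 without R26P115 gave 117. The other alternatives gave 0, limma with either pseudocount and the Dlx mean as a continuous covariate included, and leaving out each tumor gave 0 to 0 with a smallest adjusted p of 0.0784 to 0.684. The cause of the difference between tools was not tested. Against the intra-CNS tumors the calls numbered 6488, and 5642 to 8166 over filters, scaling, fold threshold and DESeq2, and leaving out each tumor gave 5550 to 6304.

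Of 64 genes named in the first comparison, 8 changed direction in at least 1 of 29 alternatives. With single tumors left out, the log2 fold change of Dlx5 ran from -0.0094 (without 43989C) to 4.17 (without R26P170), of Ttr from -18.86 to 1.60 (without R26P115), of Smarcb1 from -0.78 to 0.043 (without R26P115) and of Myc from -0.19 (without R26P115, and also below 0 without 43825B or R26P123) to 0.41. In DESeq2 without R26P115, Ttr was at 1.78, Smarcb1 at 0.021 and Myc at -0.20, and in E8 tumors without it they were at 5.42, 0.86 and -0.49, with Erbb4 at 1.21 and Foxm1 at -0.50. In extracranial tumors alone Erbb4 was at 0.96, Ttr at 1.82, Folr1 at 0.12, Foxm1 at -0.11 and Smarcb1 at 0.058. In numbered mice alone Ttr was at 2.11, Folr1 at 0.034, Foxm1 at -0.15 and Myc at -0.062, with the name scheme as covariate Ttr was at 0.31, in female mice Matn3 was at 5.97, and with a pseudocount of 0.1 Dlx5 was at -0.015. Of 25 genes against the intra-CNS tumors, 2 changed direction in 15 alternatives. With single tumors left out, Dlx5 ran from -0.98 to 0.35 and Dlx6 from -1.04 to 0.72, both highest without 38594A. The other values for named genes kept their direction, 1727 on the same side of the threshold and 97 newly past it in the first comparison, and 357, 4 newly past it and 7 no longer past it in the second.

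The age difference was -13.3 days in E8 mice (exact permutation p = 0.5) and -71.3 to -41.3 days with single mice left out. The share induced at E8 differed by 50 to 75 percentage points with single mice left out, by 75 (exact p = 0.0333) without 43990A or R26P115, and the share induced at E6 by 40 points (exact p = 0.182). With 43990A as intracranial, as the study's sample list gives it, the site differed by -30 points (exact p = 0.545). By Spearman correlation, 5 of the 10 genes most like the Dlx mean were shared, Dlx1as among them. No paired analysis was possible because no mouse had tumors in both groups. Differences between genes under 0.0272 to 0.168 CPM (3 counts) could not be seen at this depth, and with 5 and 6 tumors that differ in day and age, the Dlx group and these labels cannot be told apart.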
